A study of Mus musculus with 8 samples.

Results

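The measurements described here are the shares that the annotated transcripts of a gene took of that gene's RNA counts, in neurons of 2 genotypes. A gene was included if it had at least 2 transcripts in the deposited table and at least 100 counts in each of the 4 total RNA libraries. This rule took 8023 of 18301 genes and 40143 of 60444 transcripts, which held 77.1% to 77.2% of the RNA counts. Of the 18301 genes, 12007 had at least 2 transcripts. At the edge of the rule, Bicc1 entered with 100, 306, 412 and 101 counts in WT replicates 1 and 2 and DKO replicates 1 and 2, and Casz1 stayed out with 99, 135, 264 and 108. The rule used counts of genes and not shares, and how abundant a gene is as a whole is not described.

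The cells were mouse neurons, labelled as cortical and glutamatergic, that had been made from CGR8, a line of embryonic stem cells grown without feeders, and were taken on day 8 in vitro. They were either wildtype (WT) or carried the genotype label of a double knockout of Eif4g1 and Eif4g3 (DKO), and each genotype had 2 total RNA libraries and 2 ribosome footprint libraries. Per the labels, cycloheximide at 100 µg/ml for 5 minutes stopped translation before lysis. WT replicate 1 bears a culture code of the same form as the DKO libraries, WT replicate 2 is coded as WT alone, and DKO replicate 2 has a differently spelled code in each assay. The labels do not say how many clones or differentiations stand behind a genotype, so the p-values below measure the spread between libraries, which may be technical. The depth of total RNA was 14762047 (WT replicate 1), 22352224 (WT replicate 2), 44786643 (DKO replicate 1) and 15862034 (DKO replicate 2) estimated counts, so DKO replicate 1 was the deepest.

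One gene can give rise to several RNAs. Alternative promoters set where a transcript starts, alternative polyadenylation sets where it ends, and alternative splicing decides which exons it keeps. A cassette exon is kept or skipped as a whole, and a microexon is a very short cassette exon, here one of 3 to 27 nt. Neurons keep many microexons that other cells skip, under the control of splicing regulators such as Srrm4. Some transcripts carry an early stop codon and are broken down by nonsense-mediated decay (NMD), and others keep an intron.

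Eif4g1 and Eif4g3 encode scaffold proteins that bring the ribosome to capped mRNA, and the series' title names their microexons. Both microexons lie in coding sequence and are 21 nt long. They are shown because they are the exons the title turns on, with the exon in capitals and 20 bases of the spliced neighbours on each side. Eif4g1 is the exon at chr16:20674786-20674806 (plus strand, GRCm38) in Eif4g1-201, and Eif4g3 that at chr4:138095909-138095929 (plus strand) in Eif4g3-202.
Eif4g1: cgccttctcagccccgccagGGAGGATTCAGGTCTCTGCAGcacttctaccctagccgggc
Eif4g3: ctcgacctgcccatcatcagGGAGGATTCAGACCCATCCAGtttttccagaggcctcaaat
The exons share their first 11 bases and are identical at 16 of 21 positions.

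The microexons named in the title were examined first. Of the Eif4g1 counts on transcripts that hold or skip the microexon, 64.7% and 84.5% were on the transcript that holds it in WT, and 49.2% and 53.3% in DKO. The DKO values lay below both WT values, but the WT libraries stood further apart from each other than WT replicate 1 did from DKO, and the exon was not called (adjusted p = 1, edgeR). In counts, the transcript with the exon had 2885 and 5677 (WT) and 2952 and 2749 (DKO). These counts are not scaled to library size, and DKO replicate 1, with 2952, was the deepest library. The other main transcript, Eif4g1-206, took 31.1% and 11.6% of the gene's counts in WT and 46.5% and 42.6% in DKO (adjusted p = 1, edgeR). It also lacks a second coding block of 21 bases, at 20684408 to 20684428, and 23 bases at the start, so its share is not a measure of the microexon alone. For Eif4g3 the percentages stood at 98.5% and 97.6% in WT and 98.3% and 98.4% in DKO. Only 1 of the 9 Eif4g3 transcripts in the table holds the microexon, and it is the full-length coding one, so RNA that lacks the exon has no full-length transcript to be assigned to. In footprints the Eif4g1 percentages stood at 73.5% and 93.4% in WT and 81.9% and 71.3% in DKO, which overlapped. The shares therefore do not check the genotype labels, and DKO here means a library with that label.

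The labelled cell type was compared with its markers. The pan-neuronal markers summed to 3040 to 3510 CPM, counts scaled to library size, and Slc17a6, a vesicular glutamate transporter, stood at 84.8 to 244 CPM. Slc17a7, the other main vesicular glutamate transporter of cortex, was under 1 CPM in all 4 RNA libraries, as were the 3 microglial markers. Markers of fibroblast, mural and endothelial cells summed to 195 and 531 CPM in WT and 263 and 89.7 CPM in DKO, and the astrocyte markers to 387 and 654 against 412 and 438 CPM. WT replicate 2 was the highest in both lists. The oligodendrocyte lineage markers summed to 383 and 464 CPM in WT against 285 and 304 CPM in DKO, and those of dividing cells to 152 and 207 against 116 and 138 CPM, so these lists lay lower in both DKO libraries. Transcript mixes differ between cell types, a smaller number of cells of a type and less RNA per cell cannot be told apart in such cultures, and the part of cell composition in the shares below was not tested.

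The members had a median of 4 transcripts per gene. There were 1598 genes with 2 transcripts and 381 with more than 10, up to 26 for the opioid receptor gene Oprm1. One transcript usually dominated, and the median share of a gene's most abundant transcript was 79.6% and 79.7% in WT and 78.7% and 79.5% in DKO. Protein-coding transcripts held 87.4% to 87.7% of the members' counts, transcripts with a retained intron 5.88% to 6.25%, other processed transcripts 3.48% to 4.03% and NMD transcripts 2.65% to 2.82%. These shares differed little among libraries of either genotype. The mean transcript length, weighted by counts, was 3528 and 3581 nt in WT and 3491 and 3564 nt in DKO.

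The first question was whether the transcript mix of a typical gene differed more between genotypes than between replicates. For each gene and each pair of libraries the distance was taken as the percentage of the gene's counts that would have to move to another transcript to turn one mix into the other. The median gene stood 4.01% apart between the WT libraries and 3.96% apart between the DKO libraries. Across genotypes the medians were 4.06%, 4.23%, 3.95% and 4.36%, so 1 of the 4 lay below both replicate values and the other three above. For the 3067 genes with at least 1000 counts in every RNA library, the medians were 2.59% and 2.76% within genotypes and 2.68%, 2.9%, 2.73% and 3.05% across. With 2 libraries per genotype an exact permutation test of such a value cannot pass, since only 3 groupings exist.

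**Figure D1:**
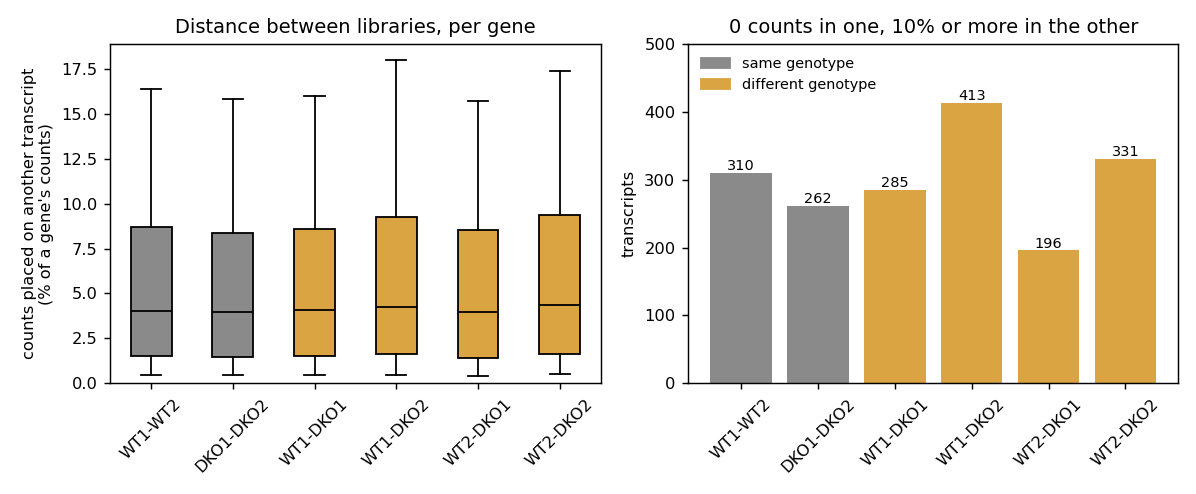
Left, distance between the transcript mixes of 2 RNA libraries, in percent of a gene's counts, over 8023 genes (box, quartiles; line, median; whiskers, the 10th and 90th percentiles). Right, transcripts with 0 counts in one library of a pair and at least 10% of the gene's counts in the other. Medians were 3.96% and 4.01% for pairs of the same genotype (grey) and 3.95% to 4.36% for pairs of different genotypes (yellow), and the counts on the right were 262 and 310 against 196 to 413.

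The most abundant transcript was the same in all 4 libraries for 7105 genes (88.6%). In 95 genes (1.18%) both WT libraries had one leading transcript and both DKO libraries another. The WT libraries differed from each other in 513 genes (6.39%) and the DKO libraries in 497 (6.19%). In 24 of the 95 genes both transcripts moved by at least 20 percentage points, and 7 of the 95 were called as genes by the test below, which called 1.92% of all tested genes. The 95 were picked for a difference between genotypes, so nothing is read from that number. The largest such moves were those of 5330417C22Rik, a gene without an established name, described below, and of Tbc1d10a, a Rab GTPase-activating protein, at 58.9 percentage points, which was not called.

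Transcripts estimated at 0 in one library and abundant in another were common in every pair. There were 310 transcripts with 0 counts in one WT library and at least 10% of the gene's counts in the other, and 262 such transcripts between the DKO libraries. Across genotypes the counts were 285, 413, 196 and 331. Switches between 0 and 10% that held in both replicates were fewer: 19 transcripts had 0 counts in both WT and at least 10% in both DKO libraries, and 7 the reverse. The share of member transcripts at 0 counts was 19.1% and 15.7% in WT and 11.7% and 18.4% in DKO, lowest in the deepest library. On the first principal component of the shares, with 40.1% of the variance, WT stood at 603 and 185 and DKO at -123 and -664. The genotypes did not overlap there, but the gap between WT replicate 2 and DKO replicate 1 was smaller than that between the replicates of either genotype.

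The second question was which transcripts took a different share in DKO RNA. edgeR's test of transcript usage, which compares a transcript's log2 fold change with that of its gene, was run on 27827 transcripts of 7287 genes. It called 151 transcripts (0.543% of those tested) in 147 genes at a Benjamini-Hochberg adjusted p under 0.05, of which 85 rose (0.305% of those tested) and 66 fell (0.237%). This balance turned with the setting: limma-voom called 41 higher and 71 lower, and the numbers were 39 and 70 without DKO replicate 1, 50 and 57 without DKO replicate 2 and 18 and 24 for transcripts of at least 5% share. At the level of genes 140 were called (1.92%). An unadjusted p under 0.05 was found for 786 transcripts where 1391 would be expected by chance. All 151 had both DKO shares on one side of both WT shares, as had 35.7% of all tested transcripts (18.9% above and 16.8% below). The 151 were picked by a test of this same difference, so nothing is read from their separation. On simulated counts edgeR's test also called transcripts of unchanged genes, beyond what its threshold of 0.05 allows. Those counts were drawn independently for each transcript with edgeR's estimated spread, without dividing reads among transcripts. They therefore do not give the rate of such calls in these data. The count moved with the test. With the gene's total count as an offset and a separate spread for each transcript, 2 changes made together and chosen after seeing the data, 0 transcripts were called and 1528 had an unadjusted p under 0.05. limma-voom called 112 in all, of which 21 were among the 151, and DESeq2 called 420.

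Most of the called transcripts had no counts in some of the libraries. A 0 in at least 1 library was present for 124 of the 151 (82.1%), against 8.42% of all tested transcripts, and in 106 both libraries of a genotype were at 0 (64 in WT, 42 in DKO). Such a transcript passed the count filter only if both libraries of the other genotype held enough counts. Its direction and its lack of overlap between genotypes were thus fixed by the filter. The same holds for start and end groups with a genotype at 0. The called transcripts also had little sequence of their own. The median called transcript had 29 stretches of 31 bases found in no other transcript of its gene, and the median tested transcript had 188. There were 33 called transcripts (21.9%) with no such stretch, against 7.67% of those tested, and 120 (79.5%) with fewer than 100, against 37.5%. When only transcripts with at least 100 such stretches were tested, 9 were called, among them Tpm3-207, Eml1-201, Rpl11-210 and Kcnip4-208. When only those counted in all 4 libraries were tested, 15 were called. Both settings were chosen after seeing the data. The part of read assignment in these calls was not tested.

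**Figure D2:**
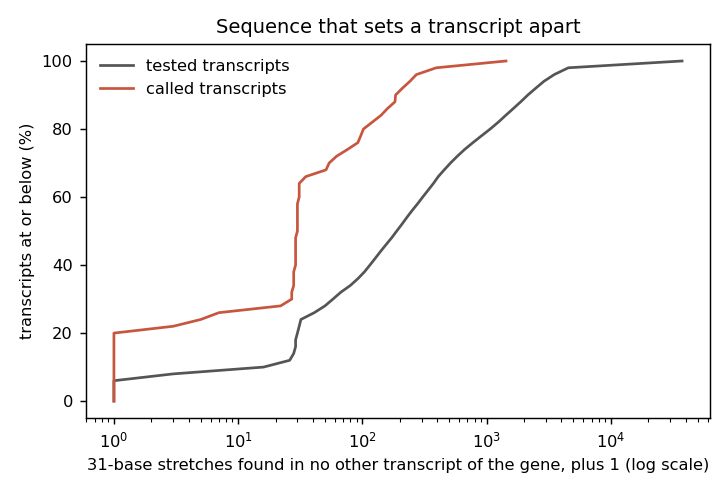
Cumulative share of transcripts (vertical, percent) by the number of 31-base stretches found in no other transcript of the gene, plus 1 (horizontal, log scale), for the 27827 tested and 151 called transcripts. The called transcripts lie to the left, with a median of 29 against 188.

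By annotation, 104 of the 151 were protein-coding (68.9%, against 57.2% of those tested), 20 had a retained intron, 16 were NMD transcripts and 11 were processed transcripts. The transcripts that moved most in opposite directions were compared in each called gene. Their starts lay over 100 bases apart in 46.4% of the 140 called genes and 57.7% of the tested genes, and their ends in 50.0% and 68.1%. The coding sequence was identical in 20.7% of the called genes and 13.5% of the tested. A cassette exon set the pair apart in 31.4% against 25.4%, and a microexon in 1.43% against 1.29%. In 15.0% of the called genes and 6.16% of the tested genes the pair differed in none of start, end, cassette exon or retained intron. These percentages describe the calls and were not tested.

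The transcripts with counts in every library are shown first, since for them a share can be compared on both sides. There were 27 such transcripts among the 151, a subset chosen after the values were seen.

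**Figure D3:**
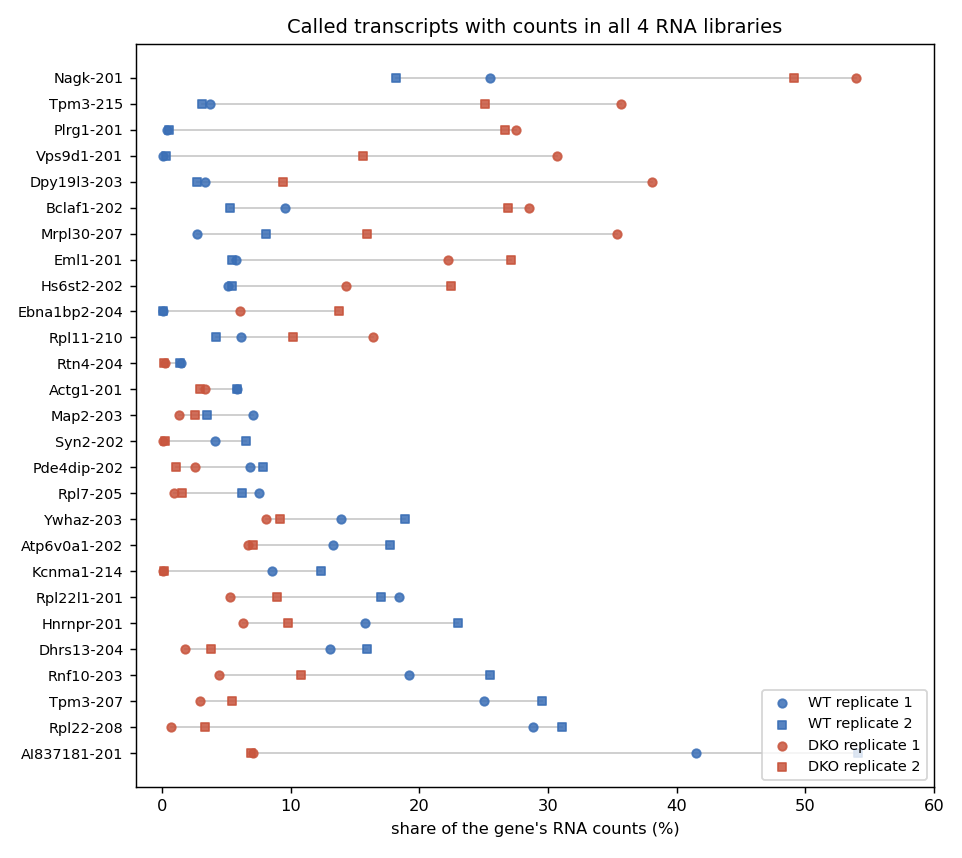
Share of the gene's RNA counts (percent) in each RNA library for the 27 called transcripts that had counts in all 4. Blue marks WT and red DKO, with circles for replicate 1 and squares for replicate 2. In each row both DKO points lie on one side of both WT points, and 11 transcripts rose and 16 fell.

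Tpm3 encodes a tropomyosin that binds along actin filaments, and 2 of its transcripts had the smallest p-values of the transcripts counted in all 4 libraries. Tpm3-215 took 3.72% and 3.12% of the gene's counts in WT and 35.7% and 25.1% in DKO (110, 161, 3794 and 847 counts). Tpm3-207 took 25.0% and 29.5% in WT and 2.96% and 5.47% in DKO (739, 1522, 315 and 185 counts). The log2 change relative to the gene was 3.18 ± 0.22 (SE, adjusted p = 9.93e-07, edgeR) for the first and -2.74 ± 0.22 (adjusted p = 4.35e-06) for the second. Both are annotated as retained introns within the gene and neither codes for the protein. Tpm3-215 has no 31-base stretch of its own and Tpm3-207 has 1156. In footprints both stood under 1% in all 4 libraries. Tpm3-212, another retained intron transcript, had 0 counts in both WT libraries and 189 and 66 in DKO, or 1.78% and 1.95% of the gene's counts.

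Rpl22 encodes a protein of the large ribosomal subunit. Rpl22-208 took 28.8% and 31.1% of its counts in WT and 0.715% and 3.36% in DKO (1318, 2214, 118 and 163 counts), a log2 change of -4.06 ± 0.41 (adjusted p = 0.000224, edgeR). Rpl22-204 stood at 21.5% and 19.3% in WT and 50.1% and 47.8% in DKO and was not called (adjusted p = 0.118). The 2 transcripts differ by 3 bases in all, which lie at their ends, and Rpl22-208 lies wholly within Rpl22-204. Among other called transcripts of ribosomal protein genes, Rpl7-205 fell from 7.56% and 6.24% to 0.941% and 1.6%, Rpl22l1-201 fell from 18.4% and 17.0% to 5.3% and 8.98%, and Rpl11-210 rose from 6.13% and 4.23% to 16.4% and 10.2%. Rps2-203 took 0.439% and 0.409% in WT and had 0 counts in DKO. How many genes of this family were tested was not counted. Genes of this family have near-identical copies elsewhere in the genome, so their estimated counts are uncertain.

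Plrg1 encodes a component of the spliceosome. Plrg1-201, annotated as an NMD transcript, took 0.429% and 0.581% in WT and 27.5% and 26.7% in DKO (4, 8, 724 and 263 counts), a log2 change of 5.70 ± 0.28 (adjusted p = 6.66e-05, edgeR). The coding transcript Plrg1-204 stood at 96.1% in both WT libraries and at 68.2% and 70.1% in DKO and was not called (adjusted p = 1). Plrg1-204 holds a coding block that Plrg1-201 lacks, of 26 bases and so not a multiple of a codon, at chr3:83070597-83070622 (plus strand). It is shown in capitals within its spliced neighbours, as the one coding block among the 102 bases by which the transcripts differ.
Plrg1: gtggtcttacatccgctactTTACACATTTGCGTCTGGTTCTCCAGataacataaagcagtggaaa
In footprints Plrg1-201 was assigned 60.4% and 60.7% in WT and 91.1% and 58.7% in DKO. The WT footprints thus did not show the low share of WT RNA. Vps9d1-201, an NMD transcript of a gene with a VPS9 domain, rose from 0.112% and 0.32% to 30.7% and 15.6% in RNA (1, 4, 996 and 163 counts). Dhrs13-204, an NMD transcript of a dehydrogenase gene, fell from 13.1% and 15.9% to 1.78% and 3.78%.

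Bclaf1 encodes a nuclear protein of the splicing and transcription machinery, and Bclaf1-202 rose from 9.59% and 5.3% in WT to 28.5% and 26.9% in DKO (440, 403, 3729 and 1318 counts). Its log2 change was 1.92 ± 0.23 (adjusted p = 0.000148, edgeR). Nagk-201, from the gene of N-acetylglucosamine kinase, rose from 25.5% and 18.2% to 53.9% and 49.1% (1.22 ± 0.23, adjusted p = 0.0398). Eml1-201, from the gene of a microtubule-associated protein, rose from 5.74% and 5.48% to 22.2% and 27.1% (2.14 ± 0.25, adjusted p = 0.00959). Hs6st2-202, from the gene of a heparan sulfate sulfotransferase, rose from 5.1% and 5.46% to 14.3% and 22.5%. The replicates of a genotype were near each other in these, and further apart in Dpy19l3-203 (3.35% and 2.74% against 38.1% and 9.38%) and Mrpl30-207, of a mitochondrial ribosomal protein gene (2.7% and 8.12% against 35.4% and 15.9%). Of 31-base stretches of their own, Mrpl30-207 has 2 and Bclaf1-202 has 5. Nagk-201 has 76, Eml1-201 has 120, Hs6st2-202 has 182 and Dpy19l3-203 has 1432.

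Other called transcripts of this subset fell. Rnf10-203, of a RING finger gene, fell from 19.2% and 25.5% to 4.46% and 10.8%. Hnrnpr-201, of an RNA-binding protein gene, fell from 15.8% and 23% to 6.32% and 9.8%. Ywhaz-203, of a 14-3-3 protein gene, fell from 13.9% and 18.9% to 8.08% and 9.15%, with counts of 1807, 3667, 3225 and 1310. These transcripts remained well above 0 in DKO. Syn2-202, of synapsin 2, fell from 4.13% and 6.57% to 0.0789% and 0.257%, and Kcnma1-214, of the BK potassium channel, from 8.57% and 12.4% to 0.0536% and 0.137%, where 1 count was left in each DKO library. Map2-203, of the dendritic microtubule protein MAP2, fell from 7.09% and 3.52% to 1.31% and 2.61%, and Actg1-201, of gamma actin, from 5.81% and 5.85% to 3.36% and 3.0%. Rtn4-204, of the reticulon that holds Nogo, fell from 1.46% and 1.42% to 0.243% and 0.189%. The footprint shares of these 8 transcripts were at most 2.72% in any library. Hnrnpr-201, Syn2-202 and Map2-203 have no 31-base stretch of their own, and Kcnma1-214 has 6. Actg1-201 has 21, Ywhaz-203 and Rtn4-204 have 27 each, and Rnf10-203 has 392.

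The largest called differences of share were mostly in genes of low counts. 5330417C22Rik-201 took 78.5% and 79.6% of the WT RNA counts and 0.203% and 0% of the DKO RNA counts (113, 117, 1 and 0 counts, adjusted p = 0.00634, edgeR). 5330417C22Rik-207 stood at 16.7% and 15.0% in WT and 96.7% and 94.5% in DKO (adjusted p = 0.0824). The transcripts differ by 5 bases at the 5′ end. In footprints the first stood at 80.2% and 84.0% in WT and at 79.1% and 83.4% in DKO. The groups overlapped, and the DKO footprints did not show the low share of DKO RNA. In Whrn, which encodes a scaffold protein of sensory cells, Whrn-206 took 0% and 0.407% in WT and 49.9% and 43.2% in DKO (0, 1, 183 and 57 counts). Whrn-201 took 49.5% and 13.4% in WT and had 0 counts in both DKO libraries. The pair differs by a single codon-length block, CAG at chr4:63416591-63416593 (minus strand), present in Whrn-201 and shown in capitals because these bases alone set the pair apart.
Whrn: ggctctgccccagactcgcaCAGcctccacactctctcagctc
Whrn-206 had 39.4% and 0.452% of the footprints in WT and 50.0% and 45.1% in DKO, so WT replicate 1 was near the DKO libraries there.

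In other genes among the 20 with the largest differences the called transcript rose from 0 counts in both WT libraries. Such transcripts, and those at 0 in both DKO libraries below, passed the filter only through the genotype that had counts. Cnot3-201, of a subunit of the CCR4-NOT deadenylase, reached 28.3% and 49.4%, and Nab2-202, of a corepressor of EGR factors, reached 31.9% and 25.8%. Dph6-201, of an enzyme of diphthamide synthesis, reached 30.3% and 22.6%. These came from 131 and 77, 235 and 66, and 158 and 35 DKO counts. Zfp446-204 reached 20.8% and 29.7%, Slc19a1-209, of the reduced folate carrier, 35.6% and 13.8%, and Pnkd-203 31.3% and 17.0%. The footprints of Pnkd-203 stood at 57.7% and 55.4% in WT and 59.2% and 60.6% in DKO, and those of Cnot3-201 at 78.2% and 74.4% against 81.4% and 87.5%. Both transcripts thus had WT footprints although they had no WT RNA counts.

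The reverse, 0 counts in both DKO libraries, was found for Pcgf1-201, of a polycomb RING finger gene (67.7% and 40.0% in WT), and Zfp653-201 (68.5% and 35.1%). It was also found for Eya3-203, of a transcriptional coactivator with phosphatase activity (19.7% and 32.6%), and Trmt10a-206, of a tRNA methyltransferase gene (36.7% and 9.37%). The WT replicates stood apart in each of these transcripts, by the fewest percentage points in Eya3-203. Zfp653-201 took 64.0% and 0% of the WT footprints and 100% of the DKO footprints in both libraries, opposite to the RNA. In AI837181 the called transcript AI837181-201 was counted throughout, at 41.5% and 54.1% in WT and 7.06% and 6.93% in DKO. Nploc4-202, of a cofactor of the p97 ATPase, rose from 0.537% and 0% to 11.3% and 34.7% (10, 0, 630 and 742 counts). It lacks a coding exon of 96 nt at chr11:120385770-120385865 (minus strand) that Nploc4-201 holds.

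Footprints gave a second reading of the same transcripts in other libraries. The footprints are short fragments of the transcripts and hold fewer of the distinguishing bases, so their assignment to transcripts is more uncertain than that of RNA. The median absolute difference between genotypes for the 151 called transcripts was 5.79 percentage points in RNA and 0.77 in footprints. For all tested transcripts it was 1.17 in RNA and 0.977 in footprints. Both DKO footprint shares lay beyond both WT shares on the side of the RNA difference for 13 of the 151 (8.61%, against 11.9% of all tested transcripts). They lay beyond on the opposite side for 14 of them (background 12.1%). The share with footprints on the side of the RNA was thus near that of the tested transcripts at large.

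**Figure D4:**
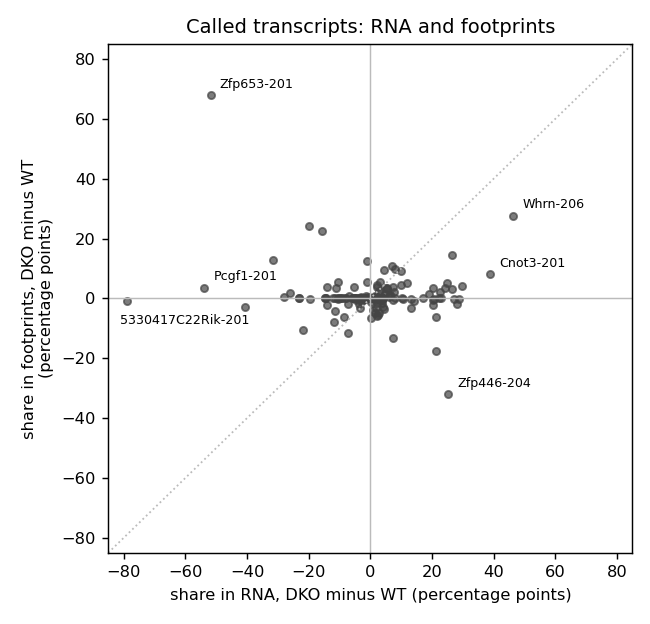
Difference of mean share, DKO minus WT, in RNA (horizontal) and in footprints (vertical), both in percentage points, for the 151 called transcripts (points). The dotted line marks equal differences. Most points lie along the horizontal axis, with a median absolute difference of 5.79 percentage points in RNA and 0.77 in footprints.

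The third question was whether exons were kept or skipped differently, and microexons in particular. Inclusion was taken as the percentage of counts on transcripts that hold the exon among those that hold or skip it. Of 5699 cassette exons in 3051 genes, 0 were called by edgeR (0.0%, smallest adjusted p = 0.0592), and 181 (3.18%) had an unadjusted p under 0.05. limma-voom called 1, and with all 8 libraries in the fit edgeR called 47. The median inclusion was 64.6% and 64.9% in WT and 65.2% in both DKO libraries. Both DKO values lay above both WT values for 942 exons (16.5%) and below for 1041 (18.3%).

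Of the 5 exons with the smallest p-values, those of Dlg5 and Bclaf1 had the largest differences, and their sequences are shown for that reason. Dlg5 encodes a scaffold protein of cell polarity and junctions. Its exon of 69 nt at chr14:24202298-24202366 (minus strand) stood at 100% and 99.8% inclusion in WT and at 71.5% and 70.6% in DKO (adjusted p = 0.0592, edgeR). The exon of 147 nt of Bclaf1 at chr10:20334499-20334645 (plus strand) stood at 83.6% and 87.7% in WT and 64.9% and 65.7% in DKO (adjusted p = 0.0592). Each is printed with the exon in capitals between 20 bases of the neighbouring exons.
Dlg5: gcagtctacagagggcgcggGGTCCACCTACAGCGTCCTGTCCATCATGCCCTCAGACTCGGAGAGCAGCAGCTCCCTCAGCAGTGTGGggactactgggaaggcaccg
Bclaf1: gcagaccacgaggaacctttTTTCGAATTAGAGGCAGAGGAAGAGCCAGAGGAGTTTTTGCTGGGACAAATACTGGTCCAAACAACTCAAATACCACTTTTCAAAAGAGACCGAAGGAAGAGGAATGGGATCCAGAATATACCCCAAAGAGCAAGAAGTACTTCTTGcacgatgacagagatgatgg
The replicates were close to each other in both exons and the genotypes did not overlap. In footprints the Dlg5 exon stood at 73.1% and 11.6% in WT and 11.1% and 87.9% in DKO, and the Bclaf1 exon at 80.0% and 68.7% against 78.7% and 70.8%, so both overlapped. Dlg5-202, the transcript that skips the exon, was called as a transcript (0% and 0.177% in WT, 27.9% and 28.4% in DKO, adjusted p = 0.000126). The other 3 of these 5 exons differed less: the exon of 439 nt of Actg1 stood at 94.2% and 94.1% against 96.6% and 97.0%, that of 129 nt of Pkp4, a junction protein of the plakophilin family, at 100% in both WT libraries against 97.3% and 97.0%, and that of 198 nt of Echs1, a mitochondrial enzyme of fatty acid oxidation, at 100% in both against 95.4% and 91.6%.

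There were 224 microexons in 187 genes, 199 of them coding, and 0 were called (edgeR, smallest adjusted p = 0.127). An unadjusted p under 0.05 was found for 8 (3.57%, against 3.18% of all cassette exons). Their median inclusion was 49.4% and 47.8% in WT and 48.3% and 50.0% in DKO. Both DKO values lay above both WT values for 29 microexons and below for 31, together 26.8%, against 34.8% of all cassette exons. The median difference, DKO minus WT, was -0.16 percentage points for microexons and 0.02 for all cassette exons, and the median absolute differences were 1.99 and 1.61. The numbers above and below were thus close to each other.

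The microexon with the smallest p-value was that of Atp6v0a1, a subunit of the vacuolar proton pump that acidifies synaptic vesicles. Its 18 nt at chr11:101049459-101049476 (plus strand) stood at 82.4% and 76.3% in WT and 90.9% and 90.7% in DKO (adjusted p = 0.127, edgeR). Among the 5 microexons with the smallest p-values, that of Pfkfb3, a regulator of glycolysis, had the largest difference. Its 23 nt at chr2:11478036-11478058 (minus strand) stood at 13.3% and 17.5% in WT and 39.8% and 53.9% in DKO (adjusted p = 0.535). Both are shown with the exon in capitals.
Atp6v0a1: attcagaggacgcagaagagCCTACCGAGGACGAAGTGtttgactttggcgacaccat
Pfkfb3: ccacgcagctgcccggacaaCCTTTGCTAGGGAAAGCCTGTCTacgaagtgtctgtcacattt
Neither pair of genotypes overlapped in RNA. In footprints Atp6v0a1 stood at 74.4% and 89.4% in WT and 82.5% and 95.7% in DKO, and Pfkfb3 at 58.2% and 62.2% against 68.0% and 56.6%, so both overlapped. Atp6v0a1-202, the only transcript counted as skipping the exon, was called as a transcript. It fell from 13.3% and 17.7% to 6.67% and 7.11% (adjusted p = 0.00634). It also has a start site of its own, which was called with the same shares (adjusted p = 0.0212, edgeR). Neither its share nor the inclusion of this exon is therefore a measure of the microexon alone. The 3 others with the smallest p-values were the exon of 26 nt of Sfxn4, a mitochondrial protein (100% in both WT libraries against 95.8% and 90.0%), that of 25 nt of Tyw5, an enzyme of tRNA modification (0% in both against 15.2% and 3.79%), and that of 24 nt of Acaca, acetyl-CoA carboxylase (100% in both against 99.7% in both).

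**Figure D5:**
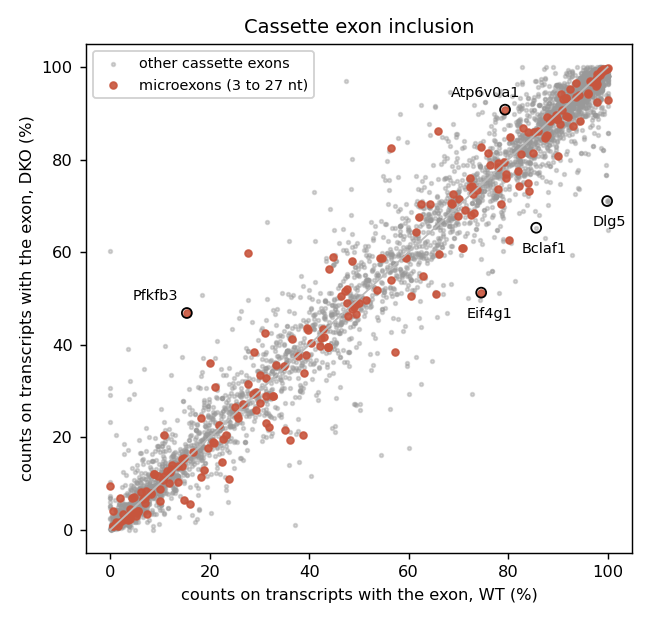
Mean inclusion in WT (horizontal) and DKO (vertical) RNA, in percent of counts on transcripts that hold or skip the exon, for 5699 cassette exons. The 224 microexons of 3 to 27 nt are in red and the line marks equal inclusion. Black rings mark the exons named in the plot. The microexons lie on both sides of the line, and no exon passed the test.

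Transcripts of a gene were also grouped by start sites and by end sites within 100 bases of each other. Of 16742 start groups 34 were called (0.203%) in 33 genes, and in 23 of them both libraries of a genotype were at 0 counts. They were led by the Tpm3-215, Rpl7-205 and Eml1-201 starts, each used by that transcript alone, and by Mast2-201, of a microtubule-associated kinase (0% in both WT libraries against 19.0% and 3.36%), and Fkbp8-205 (0% in both against 0.649% and 0.43%). Of 21369 end groups 59 were called (0.276%) in 57 genes, 33 of them with a genotype at 0. The first were Tpm3-215, Tpm3-207 and Actg1-201, followed by Cux1-204, of a homeobox gene (1.11% and 1.96% in WT, 0.0123% and 0% in DKO), and Maf1-214, of a repressor of RNA polymerase III (0% in both WT libraries, 2.84% and 1.84% in DKO). Both DKO shares lay beyond both WT shares for 35.4% of all tested start groups and 35.8% of all tested end groups. Each of these leading groups held a single transcript. Without DKO replicate 1, 2 start groups and 15 end groups were called, and with the gene total as an offset 0 of either.

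The gene lists held few calls, to be read against the 1.92% of all tested genes that were called. Among 22 neuronal splicing regulators and 33 general splicing factors 0 genes were called, with 0 of 106 and 0 of 212 transcripts. In the splicing regulator Mbnl2, Mbnl2-202 stood at 50.5% and 49.9% in WT and 31.8% and 22.6% in DKO (adjusted p = 0.778, edgeR), and Mbnl2-201 took nearly all of the rest. In Rbm5 the NMD transcript Rbm5-210 stood at 8.74% and 9.14% against 20.2% and 18.9% (adjusted p = 0.349). In Srsf2 the retained intron transcript Srsf2-203 stood at 40.4% and 40.0% against 46.7% and 43.4% (adjusted p = 1). The groups of these 3 transcripts did not overlap, but none passed.

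Of 43 genes known for neuronal microexons 1 was called (2.33%). This was Ank2, which encodes the membrane adaptor ankyrin-B, through Ank2-212, which took 0% in WT and 0.133% and 0.442% in DKO. The main transcript Ank2-201 stood at 49.9% and 49.5% against 52.3% and 52.1%. Of 28 presynaptic release genes 1 was called (3.57%), Syn2, and of 25 postsynaptic scaffolds 0, although Dlgap1-201 was called as a transcript at 1.42% and 2.63% in DKO from 0 counts in WT. Of 31 receptor and adhesion genes 0 were called. Of 24 ion channel genes 2 were called (8.33%), Kcnma1 and Kcnip4, which encodes a partner of A-type potassium channels and whose Kcnip4-208 took 11.6% and 8.1% in DKO from 0 counts in WT.

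The cytoskeleton and axon list held the most calls, 4 of 29 genes (13.8%) with 2 transcripts that rose and 4 that fell. These were Tpm3, Actg1 and Map2, described above, and Dync1i2, which encodes a dynein intermediate chain. Its Dync1i2-204 took 1.31% and 5.85% in WT and had 0 counts in DKO, and the main transcript Dync1i2-207 stood at 63.2% and 53.3% against 63.3% and 63.5%. The median distance of the list was 3.83% between genotypes and 3.42% within them, below the values of all tested genes (4.6% and 4.35%, mean of the pairs).

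Of 29 translation initiation factors 0 were called, with 0 of 137 transcripts. Their median distance was 4.49% between and 3.08% within genotypes. In Eif4a2, an RNA helicase that works with eIF4G, the NMD-annotated transcript Eif4a2-204 stood at 37.3% and 35.0% in WT and 39.2% and 39.6% in DKO (adjusted p = 1, edgeR). In Eif4a1, the main helicase, Eif4a1-213 stood at 77.6% and 82.4% against 82.9% and 83.0%. Neither differed by more than a few points. Among 8 activity-induced genes, 22 genes of dividing and non-neuronal cells and 20 imprinted genes 0 were called. In Bdnf, a neurotrophin with many promoters, Bdnf-207 had 0 counts in WT and 86 and 115 in DKO (adjusted p = 0.496). In Pax6, a transcription factor of progenitors, Pax6-206 stood at 0% and 4.88% in WT and 19.3% and 26.4% in DKO (adjusted p = 0.585). In Peg10, an imprinted gene derived from a retrotransposon, Peg10-203 stood at 0.048% and 0.0329% against 0.372% and 7.3%, so a single DKO library set its mean.

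The calls also depended on single libraries. Leaving out 1 RNA library at a time left 107 to 138 transcripts called, of which 41 to 58 were among the 151, and 16 were called whichever library was left out. These 16 were Tpm3-215, Tpm3-207, Plrg1-201, Rpl22-208, Rpl7-205, Vps9d1-201, Dlg5-202, Dph6-201 and Zfp446-204, described above, and Nt5c3b-203, Dhps-207, Tbc1d19-205, Trpc4ap-202, Pmm1-202, Alg11-202 and Slc45a4-205.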

How the data were processed

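The tools named in the submitters' processing notes are FastQC, Trimmomatic, Bowtie and kallisto, with no version. Build, settings and use of strand were not given in the sources used here. The transcript set was not described either, beyond an abbreviation in the deposited table's name that reads as transcript support level. The table the authors deposited gives an estimated count for each Ensembl transcript, all whole numbers, so none were rounded. kallisto divides reads among transcripts that share sequence, so shares are estimates, and a transcript can be estimated at 0 although its exons are covered. Of 60528 transcripts 60444 (99.86%) matched GENCODE M21 (GRCm38), which gave gene names, exons, biotypes and sequences, and the other 84 were left out.

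Counts of the 4 RNA libraries were TMM-scaled and filtered with filterByExpr (minimum count 10). Transcripts were tested with edgeR 4.0.16 (quasi-likelihood fit and diffSpliceDGE, limma 3.58.1, R 4.3.3), 2 libraries against 2, which left 2 residual degrees of freedom per transcript, pooled over a gene. Genes were called by the Simes method, and cassette exons by the same method over the counts with and without the exon. P-values are two-sided and were adjusted over all features by the Benjamini-Hochberg method. Values are given per library, and ± marks the SE. Differences in share are in percentage points of the gene's counts, not corrected for transcript length. The median SE of a log2 change was 0.45. On simulated counts, drawn independently for each transcript, the procedure also called transcripts of unchanged genes, more often than its threshold of 0.05 allows.

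Named genes are the 20 with the largest differences among called transcripts that differed by at least 10 percentage points without overlap, up to 5 exons or groups per fit, up to 3 called genes per list or otherwise the 2 with the smallest p, and Eif4g1 and Eif4g3. Some genes that this rule names are not reported here. Other transcripts were chosen after their values were seen. The genes, lists and tests were chosen with earlier results of these data known. Alternatives were RLE scaling, other filters, DESeq2 1.42.0, limma-voom, all 8 libraries, coding transcripts alone, shares per length, a replicate block and leaving out each library. Those added after seeing the data were the gene total as an offset and tests of transcripts with sequence of their own or with counts in all libraries.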

Additional observations from a re-analysis of the deposited data

How the results depend on the processing

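Called transcripts (151) numbered 154 with RLE scaling, 108 without a filter, 112 with limma-voom or with a gene minimum of 500 counts and 122 with all 8 libraries, and called genes (140) 96 without a filter, 67 with limma-voom and 112 with all 8. Counts moved more for transcripts of at least 5% share (42 transcripts, 38 genes), coding transcripts alone (36 and 35), DESeq2 (420 and 347) and the gene total as an offset (0 and 0). Tests limited to transcripts with 100 stretches of their own, or with counts in every library, called 9 and 15. Leaving out 1 library left 107 to 138 transcripts, 70 to 97 genes (71 without WT replicate 1, 70 without DKO replicate 1, 71 without DKO replicate 2), 2 to 22 start groups (34 in the main test, 3 without WT replicate 1, 22 without WT replicate 2, 2 without DKO replicate 1, 19 without DKO replicate 2) and 15 to 46 end groups (59 in the main test, 29 without WT replicate 2, 15 without DKO replicate 1, 29 without DKO replicate 2). In these fits the lone library is assumed to vary like the others. Start and end groups numbered 64 and 92 with all 8 libraries, 1 and 11 for coding transcripts, 15 and 33 with limma-voom and 0 and 0 with the offset. Cassette exons (0 called) gave 3 with a gene minimum of 500 counts, 47 with all 8 libraries and 1 with limma-voom. The replicate numbers share only a number (correlation of deviations 0.013 over 20625 transcripts). With the replicate block 52 transcripts (51 of them among the 151), 38 genes, 0 cassette exons, 6 start groups and 19 end groups were called. The median distance between and within genotypes was 4.15% and 3.98%, 7.07% and 6.85% with shares per transcript length, 3.62% and 3.4% for coding transcripts and 3.32% and 3.16% with 500 counts, where 60 of the genes counted had another leading transcript. No named transcript that was called changed the sign of its difference under an alternative that was run. For named transcripts that were not called, changes of sign were not counted. The balance of 85 higher and 66 lower calls turned in 5 settings. Among these were limma-voom (41 and 71), the 5% share (18 and 24) and the replicate block (25 and 27). The cause of these changes was not tested, beyond fewer features or libraries where the alternative removes them. The share of transcripts at 0 counts was lowest in the deepest library, and no comparison at equal depth was made.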
